A study of Mus musculus with 36 samples.

Results

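The genes described here rose within 6 h of interferon-b (IFN-b) in the wild-type mouse microglia used to choose them. By 24 h they had largely fallen back there. They were chosen on 6 arrays, the wild-type microglia deposited beside the Usp18 knockout arrays (set 1). A gene qualified when its 6 h mean lay at least 1.5 log2 units above its 0 h mean, less than 50% of that difference was left at 24 h, and its 6 h mean exceeded a log2 level of 7. Each gene was read by the probe set with the highest mean over the first 12 arrays. Of 12394 genes, 170 met these thresholds. Of these, 19 were set aside by symbol, since chemokines, interleukins, interferon regulatory factors, Socs, Toll-like receptor, Nfkb, solute carrier, proteasome, Gbp and caspase genes were not followed here. This left 151 members.

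Total RNA was measured on 36 Affymetrix expression arrays in 18 groups of 2 biological replicates. Primary microglia came from Usp18 knockout (KO) mice and WT mice (set 1), and from Usp18_C61A mice and WT mice (set 2). Cells of the microglial line BV-2 received siRNA against Usp18 or a control siRNA. All grew in medium with serum, and IFN-b at 500 U/ml was present for 0 h (untreated), 6 h or 24 h. A set is a run of 12 consecutive arrays in the deposit, and no label explains these runs. Age and sex of the mice, pooling of animals and the extent of the Usp18 deletion were not given in the sources used here. Values are log2 intensities as deposited, so a difference of 1 is a doubling on the array scale, and levels of different probe sets are not compared. In such bulk RNA, a change in the number of cells of a type and a change in RNA per cell cannot be told apart.

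Type I interferon signals through the receptor chains IFNAR1 and IFNAR2 and the kinases Jak1 and Tyk2. The pathway drives genes that carry an interferon-stimulated response element (ISRE), and some interferon-responsive genes carry gamma-activated sequences (GAS). USP18 is itself interferon-induced. It removes the ubiquitin-like modifier ISG15 from proteins with its catalytic cysteine, and separately it binds IFNAR2 and restrains the receptor. The C61A mutant lacks the catalytic cysteine, whereas the knockout lacks the protein. Transient transcripts of activated macrophages include feedback regulators, cytokines and co-stimulators, many of them also driven by NF-kB and AP-1.

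Sequence was available for 124 of the 151 members in a RefSeq promoter table (GRCm38.p6), read over the 250 bases before each start on both strands. The ISRE letters (GAAA, any 2 bases, GAAA) occurred in 6 of these 124 genes (4.84%), against 3.35% of 9888 measured genes and 2.98% of all 32851 promoters. The 6 were Apobec3, D17H6S56E-5, Mmp13, Myd88, Slamf8 and Snx10. The GAS letters TTCNNNGAA were found in 4.84% of members, against 7.31% of measured genes and 7.02% of all promoters. The NF-kB letters (GGG, any 5 bases, CC), which are permissive, were found in 70.2% of members, against 63.0% of measured genes and 45.8% of all promoters. For AP-1 (TGANTCA) the shares were 4.03% of members, 6.84% of measured genes and 6.75% of all promoters. For the cyclic AMP response element (TGACGTCA) they were 1.61%, 2.53% and 1.55%. Members and measured genes were counted once per gene, over any of its starts, whereas all promoters were counted singly. Counted singly, the members' promoters held the ISRE, GAS and NF-kB letters in 3.97%, 5.30% and 60.9%. For AP-1 and the cyclic AMP response element the values were 3.31% and 1.33%. These shares were not tested, and a match is a description of letters, not a shown binding site.

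The stretches below are printed because these members carry matches near their start and recur in the results. Mmp13 (chr9:7272354-7272498, plus strand) holds ISRE letters beginning 146 bases, and AP-1 letters beginning 35 bases, before its start. Slamf8 (chr1:172590569-172590678, minus strand) holds ISRE letters 15 bases before its start, and Apobec3 (chr15:79892248-79892347, plus strand) 140 bases before. Icam1 (chr9:21015810-21015919, plus strand) holds NF-kB letters at 120 bases and GAS letters at 42 bases. Acod1 (chr14:103046912-103047011, plus strand) holds NF-kB letters at 55 bases, and Zyx (chr6:42349658-42349757, plus strand) AP-1 letters at 121 bases. Capitals mark the matches, which do not overlap each other in these stretches. All are written 5′ to 3′ on the gene's strand.
Mmp13: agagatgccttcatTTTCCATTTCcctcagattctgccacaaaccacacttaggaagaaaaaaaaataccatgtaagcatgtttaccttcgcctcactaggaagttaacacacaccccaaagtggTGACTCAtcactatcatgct
Slamf8: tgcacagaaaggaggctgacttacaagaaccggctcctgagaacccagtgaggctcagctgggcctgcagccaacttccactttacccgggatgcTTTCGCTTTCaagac
Apobec3: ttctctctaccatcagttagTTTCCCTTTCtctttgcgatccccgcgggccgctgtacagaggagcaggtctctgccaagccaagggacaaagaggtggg
Icam1: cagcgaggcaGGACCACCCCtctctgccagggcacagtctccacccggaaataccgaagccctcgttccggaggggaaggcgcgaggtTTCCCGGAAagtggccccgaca
Acod1: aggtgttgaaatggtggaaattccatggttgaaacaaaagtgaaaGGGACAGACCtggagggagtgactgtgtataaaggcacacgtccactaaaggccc
Zyx: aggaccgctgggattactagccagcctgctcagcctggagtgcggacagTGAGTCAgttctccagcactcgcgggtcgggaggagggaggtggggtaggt

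In WT microglia of set 1, whose arrays chose the members and are therefore described without a test, the median member was 2.02 log2 units above untreated cells at 6 h and 0.49 above at 24 h. The median share of the rise kept at 24 h was 23.9%, and 26 members lay at or below their untreated level by then. On all 151 members both 6 h arrays exceeded both untreated and both 24 h arrays, against 14.7% of all genes, an order that the rule favours. The largest rise was that of Acod1, the enzyme that makes itaconate, at 7.15. Mmp13 (5.93), Cd40 (5.90), Tnfsf10 (4.54), Tgm2 (4.12) and Slamf8 (4.11) followed, then Cd274, Gch1, the homeobox gene Lhx2, Glipr2, Batf2 and Aldh1b1 with rises of 3.39 to 3.90. In 18 members the rise was at least 3. The last genes inside the thresholds were Jdp2, Ppp2r5a and Nes (rises of 1.503, 1.504 and 1.506), and the first outside were Gatad2a, Shfl and Marcksl1 (1.491, 1.488 and 1.479). By share kept, Tor1aip2 (49.9%), Golga3 (49.6%) and Batf2 (49.3%) were inside, and Marchf5 (50.2%), Evl (50.3%) and Zup1 (50.7%) outside. By level, Ggct (7.04), Hivep1 (7.07) and Hap1 (7.13) were inside, and Ttc39c (6.96), Gcnt2 (6.78) and Fbxo42 (6.75) outside. Of the 151 members 74 had further probe sets, 111 in number. The 68 probe sets among these above level 7 at 6 h all lay higher at 6 h than at 0 h and lower at 24 h than at 6 h. They were read on the same arrays that chose the members, so this is a description and no independent support.

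Usp18 and 3 arrays need naming first. Usp18 read 4.40 and 3.77 on untreated KO arrays and 5.85 to 6.42 on treated ones, against 5.68 and 5.99 on untreated and 10.71 to 12.56 on treated WT arrays of set 1. Whether its probe set lies in the deleted part is not given. Microglial arrays of set 1 carried C1qa, a microglial complement gene, at 12.92 to 13.35. In set 2, untreated WT replicate 1, by its label, carried Usp18 at 12.97 and antiviral genes at a mean of 10.90, against 9.31 and 7.26 on replicate 2. The array labelled C61A 6 h replicate 2 carried Ctsk at 12.39 and Mycn at 11.35, genes that stood near 13 in BV-2 cells. Lesser excess of Ctsk and Mycn was seen on C61A 6 h replicate 1 (9.45 and 8.20) and WT 6 h replicate 1 of set 2 (8.11 and 6.96). The array labelled Usp18 siRNA 6 h replicate 2 carried C1qa at 9.96, against 3.54 to 5.10 on the other BV-2 arrays. These 3 arrays were kept under their labels, and the tests below that include them are also given without them. Outside that array, BV-2 cells thus carried C1qa far below its microglial level.

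**Figure D1:**
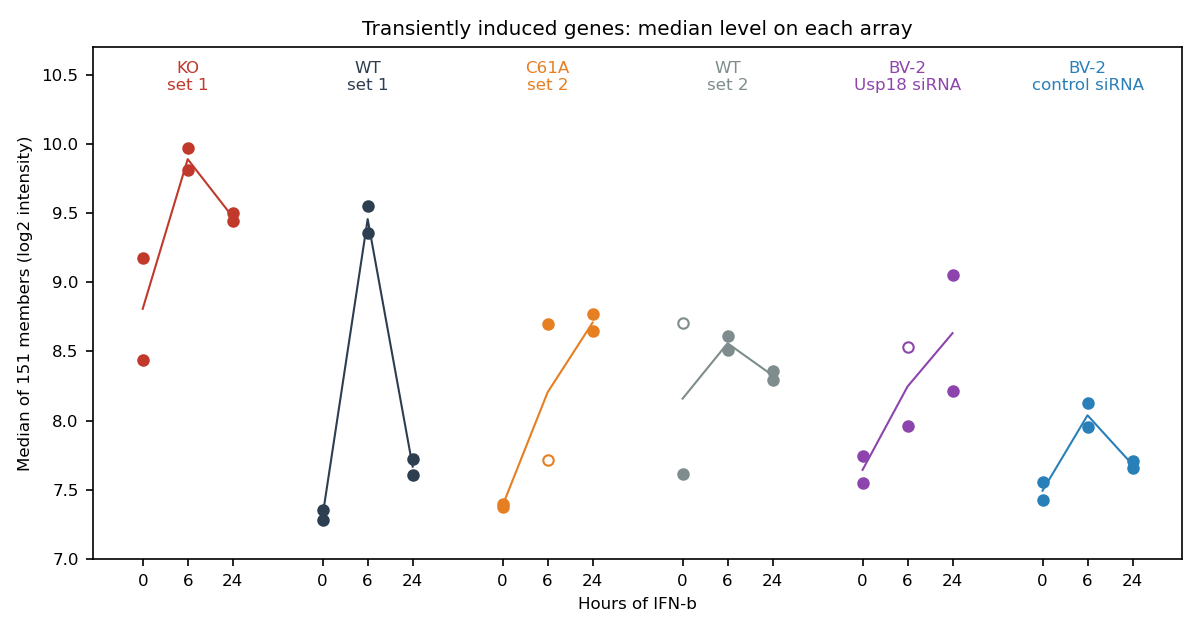
Median log2 intensity of the 151 members on each of 36 arrays (points), by course and hours of IFN-b, with lines through group means and open points for the 3 arrays that stood apart. WT cells of set 1 peak at 6 h and return, and KO cells start high and stay high. By group mean the C61A and Usp18 siRNA courses are highest at 24 h. In C61A cells this rests on 6 h replicate 2 (7.71), an open point. Replicate 1 stood at 8.70 at 6 h, against 8.65 and 8.77 on the 24 h arrays.

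Courses other than the one that chose the members differed in shape. In KO cells both 6 h arrays exceeded both untreated and both 24 h arrays in 92 of 151 members, against 9.02% of all genes. Control siRNA BV-2 cells did so in 66 of 151 members (6.13% of all genes). The count was 3 in C61A cells (2.68% of all genes), 6 in WT cells of set 2 (5.94%) and 5 in Usp18 siRNA cells (3.70%), and each of these last 3 courses holds an array that stood apart. The opposite order, with both 24 h arrays above all earlier ones, was seen in 42 members in C61A cells (9.93% of all genes) and 33 in Usp18 siRNA cells (11.0%). It was seen in 6 members in KO cells (9.53%), 8 in WT cells of set 2 (9.52%) and 6 in control siRNA cells (9.96%). In KO cells 14 members met the thresholds on change that had defined them in WT cells of set 1, against 0.299% of all genes. They were Arg1, Arid5a, Carmil1, Cd40, Dusp2, Glipr2, Gnb4, Mmp13, Ppa1, Procr, Rmdn3, Spsb1, Tnfrsf12a and Zyx. The same thresholds were met by no member in WT cells of set 2 (0.0323% of all genes). Control siRNA cells met them in 2 members, Aldh1b1 and Cd40 (0.129% of all genes). In C61A cells 1 member met them (0.105%), Flt1, a receptor of vascular endothelial growth factor, which read 6.30 on 6 h replicate 2 and between 2.995 and 3.82 on the other 5 C61A arrays, against 8.10 to 9.48 in BV-2 cells. In Usp18 siRNA cells 5 members met them (1.01%), Ccnd2, Ch25h, Gnb4, Spsb1 and Thbs1, which read 7.07 to 11.25 on 6 h replicate 2 and 3.22 to 5.03 on the other 5 arrays of that course. Both of these counts thus rest on an array that stood apart.

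**Figure D2:**
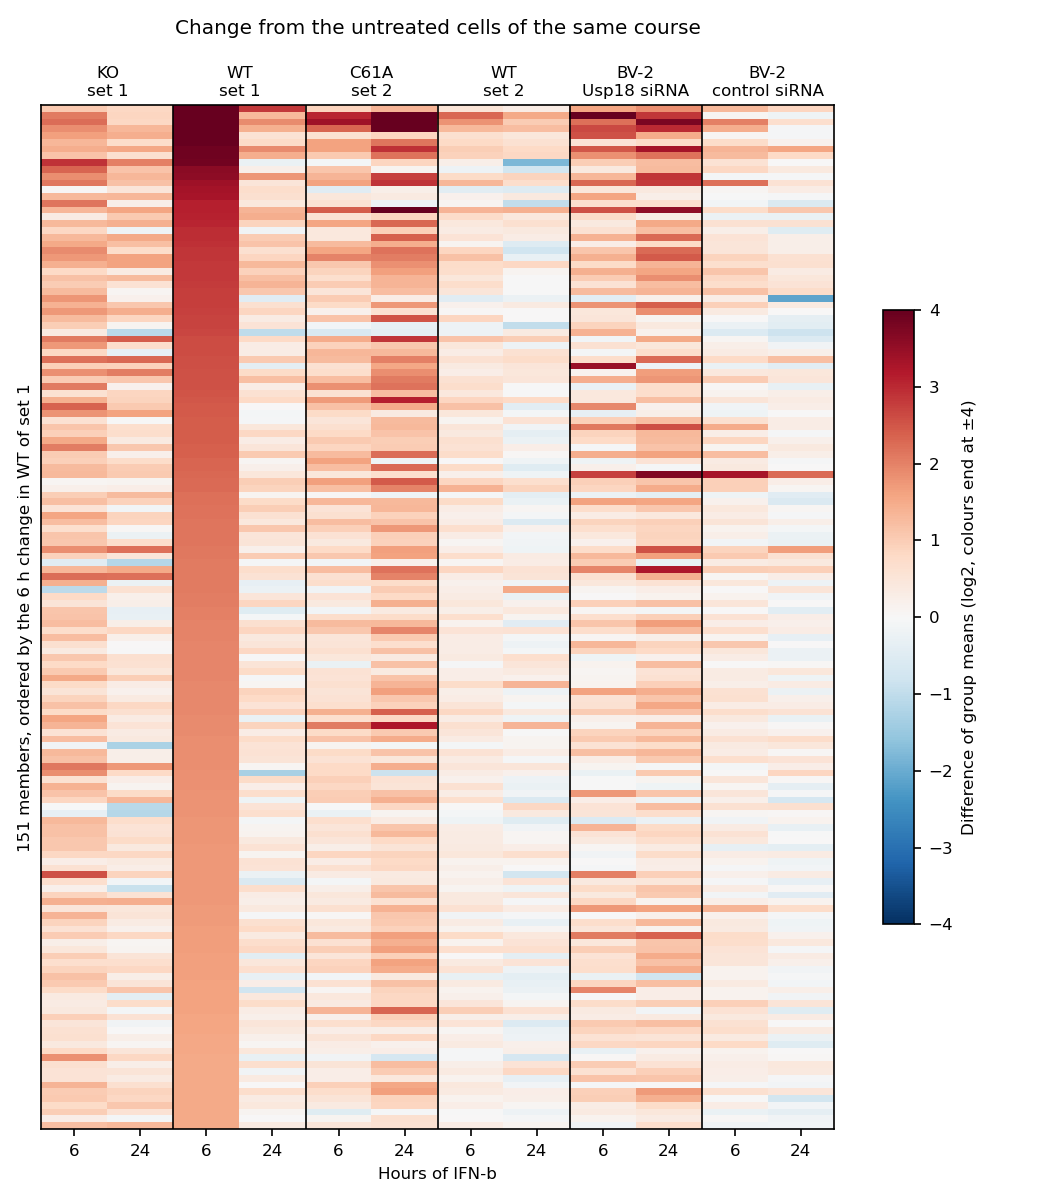
Change of each member from the untreated mean of its own course at 6 h and 24 h (log2, colour), members ordered by the rise in WT cells of set 1. The 6 h column of WT set 1 is red by the choice of members, the 24 h columns of C61A and Usp18 siRNA cells are redder than their 6 h columns, and the 24 h columns of WT set 2 and control siRNA cells are pale. In C61A cells the paler 6 h column rests on replicate 2, which stood apart. In WT cells of set 2 both columns are measured from an untreated mean that includes replicate 1, which stood apart. Its member median was 8.70, against 7.61 on replicate 2.

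KO microglia held the members high before any IFN-b. Since WT arrays of set 1 chose the members, this contrast is a description. Both untreated KO arrays lay above both untreated WT arrays in 142 of 151 members, against 26.2% of all genes, and the median difference was 1.43. At 6 h the count was 85 (22.7% of all genes) and the median difference 0.32. At 24 h it was 142 again (27.6% of all genes), with a median difference of 1.54. The difference was thus larger at 0 h and 24 h than at 6 h. The rule itself favours this order, since it chose genes whose WT levels were low at 0 h, high at 6 h and lower again at 24 h. The untreated KO arrays also carried the antiviral list, which shares no gene with the members, at means of 11.48 and 11.17, against 6.78 and 7.12 in WT cells.

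Among mediator enzymes Acod1 read 12.22 and 11.17, 12.60 and 12.87, and 12.53 and 12.54 in KO cells at 0 h, 6 h and 24 h, against 6.23 and 5.52, 12.98 and 13.06, and 8.71 and 8.71 in WT cells of set 1. KO cells therefore stood nearer to the WT peak than to the untreated WT level at every time, least so on untreated replicate 2 (11.17). Gch1, which makes the nitric oxide synthase cofactor tetrahydrobiopterin, read 10.94 and 9.87, 11.66 and 11.40, and 11.18 and 10.89 in KO cells, against 7.37 and 7.29, 11.17 and 11.28, and 8.67 and 8.92 in WT cells. Ch25h, cholesterol 25-hydroxylase, read 12.69 and 11.57 in untreated KO cells, against 9.50 and 9.95 in WT cells, and 13.27 and 12.86 at 24 h in KO cells, against 9.59 and 9.09 in WT cells. Hdc, which makes histamine, read 8.05 and 6.34 at 0 h and 8.63 and 8.70 at 24 h in KO cells, against 4.73 and 4.88 and 5.46 and 5.90 in WT cells. In these 4 genes KO and WT arrays did not overlap at 0 h or 24 h. Arg1, which hydrolyses arginine, differed: it read 4.95 and 5.84 at 24 h in KO cells, against 3.15 and 4.82 in WT cells, after 7.11 and 6.90 at 6 h in KO cells, against 6.57 and 7.86 in WT cells.

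Of the co-stimulators and adhesion genes, Cd40, the receptor for CD40 ligand, read 9.83 and 8.51, 11.48 and 11.30, and 10.07 and 9.89 in KO cells over the 3 times, against 5.19 and 5.23, 11.28 and 10.94, and 7.27 and 6.96 in WT cells. Cd274, the PD-1 ligand, read 10.89 and 9.73, 12.03 and 11.52, and 11.91 and 11.79 in KO cells, against 6.12 and 6.22, 9.99 and 10.16, and 7.86 and 8.26 in WT cells. Cd274 thus exceeded its WT level in KO cells at 6 h too. Cd86, a ligand of CD28, read 11.20 and 11.03 at 24 h in KO cells, against 8.43 and 8.76 in WT cells. Icam1, a ligand of leukocyte integrins, read 9.55 and 10.39 at 24 h in KO cells, against 8.26 and 8.55 in WT cells, and Itga5, an integrin subunit, read 9.26 and 9.37 in KO cells, against 7.30 and 7.83 in WT cells. Clec4e, a receptor for glycolipids, read 8.34 and 8.07 at 6 h in KO cells, against 9.66 and 10.19 in WT cells, the reverse of its order at 24 h (10.05 and 9.63 in KO cells, against 7.59 and 7.67 in WT cells).

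Among secreted and membrane ligands Tnf read 9.60 and 8.43, 9.74 and 9.95, and 9.03 and 8.63 in KO cells, against 7.72 and 7.60, 10.59 and 10.66, and 7.61 and 7.43 in WT cells. Its level was higher in KO cells at rest and at 24 h, and lower at 6 h. Tnfsf10 (TRAIL), a death ligand, read 8.56 and 7.34, 10.19 and 9.43, and 9.38 and 9.15 in KO cells, against 4.08 and 3.72, 8.42 and 8.45, and 5.10 and 5.54 in WT cells. Csf1, the growth factor of macrophages, read 9.05 and 9.20 at 24 h in KO cells, against 5.41 and 6.39 in WT cells. Tnfsf9 (4-1BB ligand) read 8.46 and 8.25 at that time in KO cells, against 6.59 and 6.62 in WT cells. Mmp13, a collagenase, read 9.98 and 9.46, 11.46 and 12.13, and 10.80 and 10.33 in KO cells, against 5.54 and 6.52, 11.77 and 12.14, and 7.11 and 7.55 in WT cells. Peak levels of Mmp13 thus overlapped, while its levels at rest and at 24 h did not.

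Transcription and signalling members included Batf2, a leucine zipper factor, at 9.38 and 8.12, 10.83 and 10.39, and 9.98 and 10.20 in KO cells, against 5.14 and 5.53, 8.80 and 9.06, and 6.91 and 7.31 in WT cells. Junb, an AP-1 subunit, read 9.83 and 9.85 at 24 h in KO cells, against 8.68 and 8.20 in WT cells. Ets2, an ETS factor, read 9.91 and 9.45 at 24 h in KO cells, against 8.47 and 8.49 in WT cells. Hivep1, a zinc finger factor, and Arid5a, an RNA- and DNA-binding regulator of inflammatory transcripts, were also above WT at 24 h (Hivep1 at 7.16 and 6.91 in KO cells, against 5.90 and 5.47 in WT cells, and Arid5a at 8.58 and 8.54 in KO cells, against 5.47 and 5.93 in WT cells). The stress-inducible Gadd45b and Gadd45g read 10.48 and 10.37, and 11.86 and 11.14, at 24 h in KO cells, against 6.93 and 7.71, and 7.30 and 6.91, in WT cells. Pim1, a survival kinase, read 10.01 and 9.61 at 24 h in KO cells, against 7.55 and 7.70 in WT cells. Of the NF-kB members, Bcl3 and Birc3 were above WT at 24 h (Bcl3 at 7.82 and 7.84 in KO cells, against 6.64 and 6.77 in WT cells, and Birc3 at 10.50 and 10.30 in KO cells, against 8.84 and 8.49 in WT cells). Ikbke, a kinase of interferon induction, was below WT at 24 h (8.33 and 8.47 in KO cells, against 9.21 and 9.41 in WT cells). Of the members named in these 4 paragraphs, Ikbke alone did not stand higher on both KO arrays than on both WT arrays at 24 h.

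Within KO cells the members were tested against untreated KO cells, whose values entered the rule only through the choice of probe set. In all 2.94% of 7924 genes rose at 6 h (limma, adjusted p under 0.05, Benjamini-Hochberg over all genes tested), and 29 of 151 members did. No member fell, against 5.58% of all genes. The median member changed by 1.07, against -0.11 over all genes. At 24 h 5 members had risen (1.80% of all genes) and 2 had fallen (2.36%), with a median of 0.60. From 6 h to 24 h 8 members fell (0.883% of all genes) and none rose (2.80%), with a median of -0.41.

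Zyx, zyxin of focal adhesions, and Spsb1 had the lowest adjusted p among members for the rise at 6 h and again for the fall after it. Zyx read 8.89 and 8.29 at 0 h, 10.62 and 10.84 at 6 h and 8.72 and 8.96 at 24 h in KO cells. It rose by 2.14 ± 0.300 at 6 h (log2 ± SE, limma adjusted p = 0.00278) and fell by 1.89 ± 0.300 from 6 h to 24 h (limma adjusted p = 0.00711). Spsb1, a ubiquitin ligase adaptor, read 6.66 and 6.74, 9.41 and 9.09, and 7.52 and 7.68 in KO cells at these times, so that for both genes the 6 h arrays lay above all others. Its rise was 2.55 ± 0.356 (limma adjusted p = 0.00278), and it fell by 1.65 ± 0.356 afterwards (limma adjusted p = 0.0252). Bcl3, an atypical IkB protein, rose by 1.31 ± 0.274 (limma adjusted p = 0.0129) and fell again by 1.09 ± 0.274 (limma adjusted p = 0.0418). The other members that rose most were Glipr2, Inpp5b, Tma16, Dusp2, Etv6 and Batf2, by 1.86 to 2.33, and the role-list members Tnfsf9 and Hivep1 also rose. Dusp2 is a MAP kinase phosphatase, Inpp5b an inositol phosphatase and Etv6 an ETS repressor.

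Members that fell from 6 h to 24 h in KO cells also included Pdk3, Mtmr14, Nlrp3, Gna15 and Ikbke, by between 1.06 and 1.63. Nlrp3 is the inflammasome sensor and Gna15 a G protein subunit. Inpp5b, Tma16, Utrn, Pfkp and Rilpl1 still stood above untreated KO cells at 24 h, by 1.06 to 2.21. Gna15 and Ikbke stood below them, by 1.28 ± 0.248 (limma adjusted p = 0.0169) and 1.07 ± 0.274 (limma adjusted p = 0.0430). Single arrays decided many of these calls. The 29 rises at 6 h became 39 without KO 0 h replicate 1 and 25 without KO 6 h replicate 2, but 3 without KO 6 h replicate 1 and 1, Spsb1, without KO 0 h replicate 2. Zyx then had an adjusted p of 0.0563 in the limma fit. The 8 falls after 6 h became 10 without KO 6 h replicate 1, 1 (Zyx) without KO 6 h replicate 2, and 0 without either 24 h array. The falls of Spsb1 and Bcl3 were called in none of these 4 fits (limma adjusted p up to 0.183 and 0.223). The 5 rises and 2 falls at 24 h became 23 and 1 without KO 0 h replicate 1 and none without any of the other 3 arrays. Without the 3 arrays that stood apart, all in other groups, 101 members rose at 6 h (5.99% of all genes), 32 rose and 2 fell at 24 h (3.38% and 3.36%), and 25 fell after 6 h (1.92%). The KO replicates differed before IFN-b, at member medians of 9.17 and 8.44, with astrocyte markers at means of 5.31 and 6.46, whose part in these results was not tested.

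**Figure D3:**
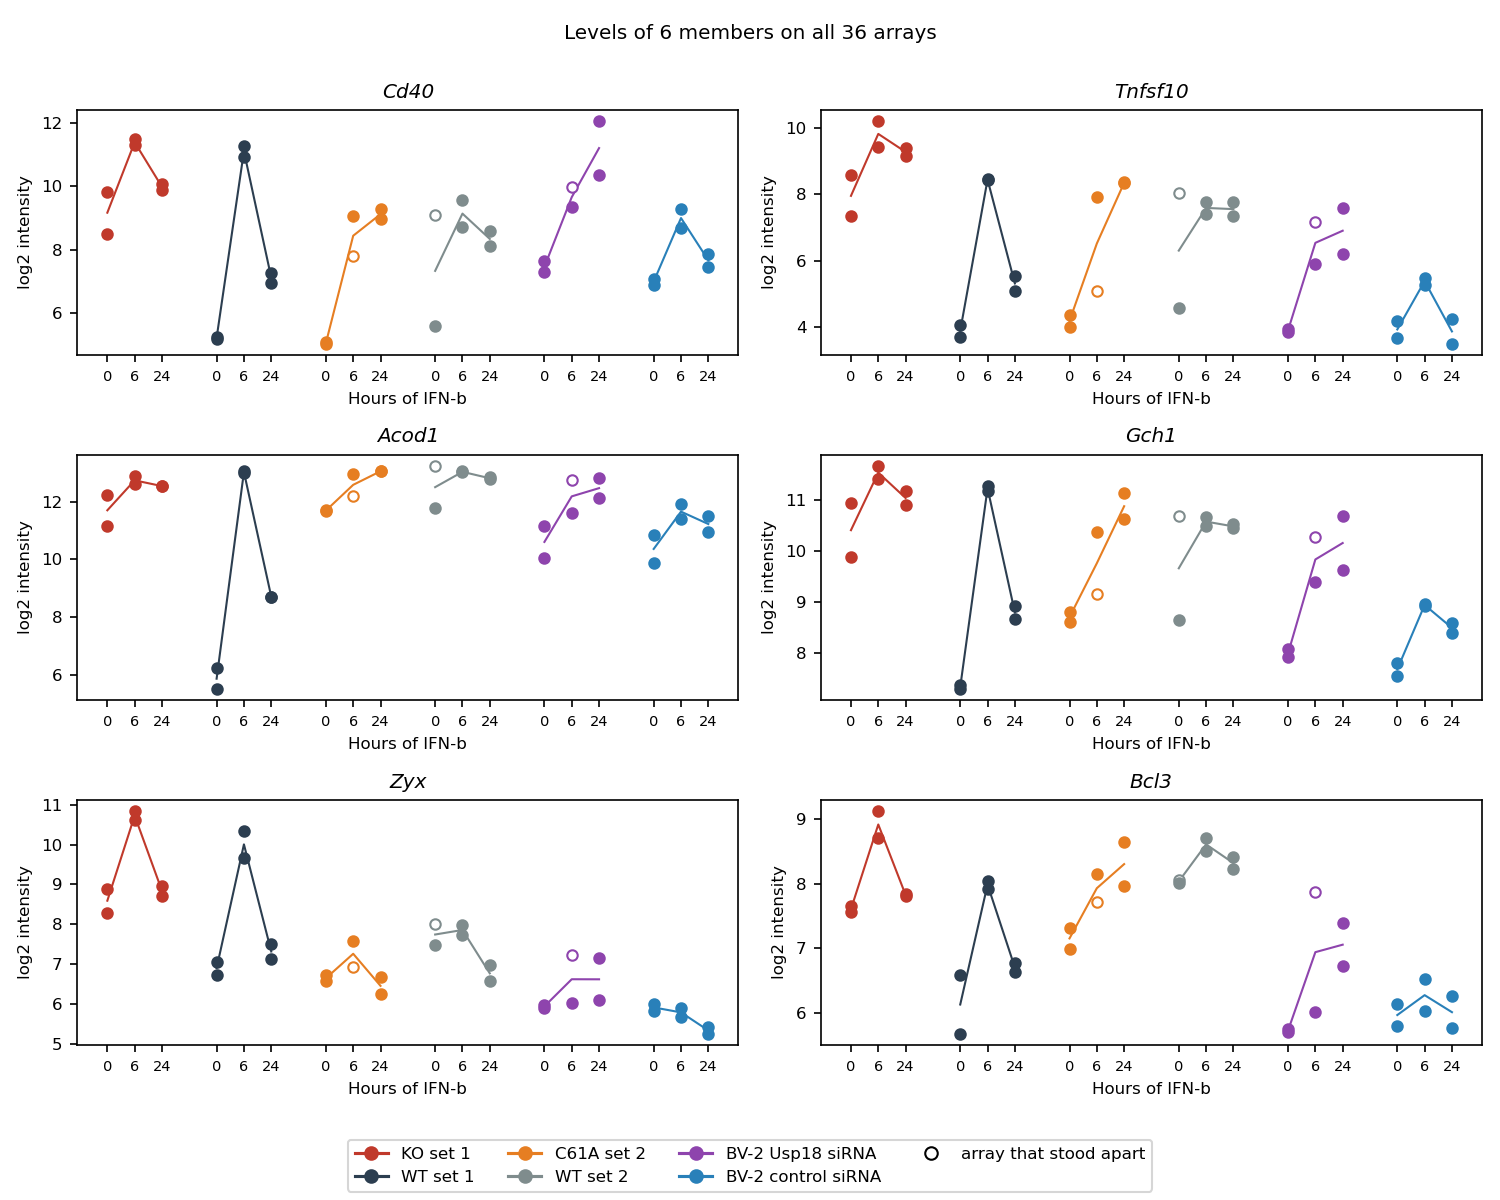
Log2 intensity of 6 members on all 36 arrays (points) against hours of IFN-b in 6 courses, lines through group means, open points for arrays that stood apart. Zyx returns after 6 h in KO cells as in WT cells of set 1, while Cd40, Tnfsf10 and Gch1 in C61A and Usp18 siRNA cells do not return by 24 h. In WT cells of set 2 Tnfsf10 and Gch1 also changed little from 6 h to 24 h (-0.04 and -0.09), and Cd40 changed by -0.80.

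C61A microglia carried the members higher at 24 h than at 0 h. In all 5.55% of genes rose and 3.61% fell, and 52 of 151 members rose while none fell (limma, adjusted p under 0.05). The median member changed by 1.10, against -0.11 over all genes, and 125 members had both 24 h arrays above both untreated ones (22.1% of all genes). Ccrl2, an atypical chemerin receptor, read 6.34 and 5.56 at 0 h, 9.71 and 7.04 at 6 h and 10.76 and 10.25 at 24 h in C61A cells. Its rise at 24 h was 4.55 ± 0.869 (limma adjusted p = 0.00927). Cd40 read 5.07 and 5.02, 9.07 and 7.80, and 8.97 and 9.27, and rose by 4.08 ± 0.767 (limma adjusted p = 0.00888). Tnfsf10 read 4.37 and 4.02, 7.93 and 5.11, and 8.33 and 8.35, and rose by 4.15 ± 0.885 (limma adjusted p = 0.0139). In each of these the lower 6 h value belonged to replicate 2, the array that carried Ctsk and Mycn.

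Mmp13 rose by 4.07, Hcar2, the niacin receptor, by 3.25, Pim1 by 3.10, Cd274 by 2.94 and the aldehyde dehydrogenase Aldh1b1 by 2.88 at 24 h in C61A cells. Of the role lists, the enzymes Acod1 (1.36) and Gch1 (2.17) rose, as did Dusp2 (2.17), Gadd45b (1.85) and the transcription factors Junb (1.25), Batf2 (2.74) and Hivep1 (0.95). The NF-kB members Bcl3 and Birc3 rose by 1.15 and 1.02. Acod1 stood high already in untreated cells of set 2, at 11.66 and 11.72 in C61A cells and 13.23 and 11.77 in WT cells, against 6.23 and 5.52 in untreated WT cells of set 1. Both genotypes of set 2 thus held Acod1 well above its level in untreated WT cells of set 1, though not above that in untreated KO cells as a group. The WT value of 13.23 was read on replicate 1, which stood apart. Icam1, Tnf, Csf1 and Ch25h, which did not pass at 24 h, read 11.07 and 10.47, 10.17 and 10.42, 9.85 and 8.50, and 12.57 and 12.43 in C61A cells, after 9.43 and 9.56, 9.20 and 9.48, 8.52 and 6.92, and 11.18 and 10.76 at 0 h.

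At 6 h no member passed in C61A cells (42 of 151 at an unadjusted p under 0.05 in limma, median 0.65), while 0.0505% of all genes rose. Without the 3 arrays that stood apart, 70 of 151 members rose at 6 h, against 4.37% of all genes, with a median of 1.21. The 6 h array then left, replicate 1, itself carried Ctsk at 9.45 and Mycn at 8.20, against 4.49 to 5.73 and 5.38 to 5.92 on the 0 h and 24 h arrays of set 2, and the part of this in the 70 rises was not tested. The change from 6 h to 24 h had no called member (24 members at an unadjusted p under 0.05 in limma), against 0.139% of all genes higher and 0.379% lower, and its median of 0.50 became -0.02 without C61A 6 h replicate 2. Whether C61A members still climbed after 6 h therefore rested on that array. The 52 rises at 24 h became 99 without the 3 arrays (8.14% of all genes), and 7 when only the 12 arrays of set 2 were fitted. They became 8 without C61A 0 h replicate 1 (Ccrl2, Cd40, Hcar2 and Batf2 among those named), 2 without 24 h replicate 1 (Bcl3 named), 3 without 0 h replicate 2 (Batf2 and Birc3 named) and 1 (Ccrl2) without 24 h replicate 2. Over these 4 fits the changes stayed between 4.17 and 4.94 for Ccrl2, 3.92 and 4.23 for Cd40, and 3.97 and 4.32 for Tnfsf10. Astrocyte markers had means of 8.57 and 6.76 at 24 h and 8.92 and 6.97 at 0 h, with 0 of 8 called, and of 11 microglial markers 1 rose and 3 fell. The untreated C61A replicates also differed in Usp18 (10.48 on replicate 1 and 8.51 on replicate 2) and in antiviral means (8.41 and 6.84). The part of these markers and of this difference in the results was not tested.

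Against WT cells of set 2, C61A cells differed in no member at 0 h, 6 h or 24 h (limma, 38, 7 and 11 members at an unadjusted p under 0.05). No gene of the 7924 was called higher at any of these times (0%), and 0.0126%, 0.0126% and 0.0252% were called lower. The median member differed by -0.69, -0.40 and 0.40 at the 3 times. Without the 3 arrays these medians were -0.13, 0.12 and 0.40, with 4 members called higher at 24 h (0.291% of all genes). Both C61A arrays exceeded both WT arrays in 96 of 151 members at 24 h, against 15.4% of all genes, and lay below both in 9 (26.8%). At 0 h both C61A arrays lay below both WT arrays in 68 members (14.1% of all genes) and above in 1 (14.3%), and at 6 h below in 34 (14.1%) and above in 1 (14.0%). The response of WT cells of set 2 had no called member at 6 h, at 24 h or between these times (limma, 3, 8 and 9 members at an unadjusted p under 0.05), with medians of 0.33, 0.10 and -0.27. Of all genes 0.0126% rose at 6 h, 0.0252% at 24 h and 0% between. Its untreated replicates lay apart, with member medians of 8.70 on replicate 1 and 7.61 on replicate 2. Without the 3 arrays only replicate 2 was left at 0 h, so changes from 0 h in that fit rest on it. WT 6 h replicate 1, which was kept, carried Ctsk at 8.11 and Mycn at 6.96, and the part of this was not tested. Without the 3 arrays 54 members rose at 6 h (median 0.90, 3.06% of all genes) and 26 at 24 h (median 0.61, 2.53% of all genes), and none changed between 6 h and 24 h. No member's response differed between C61A and WT cells from 0 h to 6 h, from 0 h to 24 h or from 6 h to 24 h (limma, 0, 46 and 11 at an unadjusted p under 0.05). The median differences in response were 0.28, 1.06 and 0.71, or 0.18, 0.49 and 0.27 without the 3 arrays. Leaving out WT 0 h replicate 2 leaves only the replicate with high Usp18, so calls in that fit rest on that array.

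BV-2 cells could be read for 141 members. The other 10 (Ccnd2, Ch25h, Chac1, Gnb4, Jak3, Kdr, Mmp14, Pmepa1, Spsb1 and Thbs1) lay below the array median on all or all but 1 array. Usp18 read 7.92 and 9.001, 11.10 and 12.49, and 11.07 and 11.48 in Usp18 siRNA cells at 0 h, 6 h and 24 h, against 8.38 and 8.59, 12.15 and 12.04, and 11.51 and 11.73 in control siRNA cells. Both Usp18 siRNA arrays lay below both control arrays at 24 h, by well under 1 log2 unit. At 0 h and 6 h Usp18 siRNA replicate 2 lay above both control arrays, against its label, and replicate 1 below both. At 24 h 34 of 141 members were higher in Usp18 siRNA cells than in control siRNA cells and none lower (limma, adjusted p under 0.05), against 3.01% and 1.95% of all genes. The median member differed by 1.01, against -0.08 over all genes. Both Usp18 siRNA arrays exceeded both control arrays in 122 of 141 members (26.7% of all genes).

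Cd40 led. It read 10.36 and 12.06 in Usp18 siRNA cells at 24 h, against 7.46 and 7.86 in control siRNA cells, a difference of 3.55 ± 0.482 (limma adjusted p = 0.0124). At 6 h it read 9.35 and 9.97 in Usp18 siRNA cells, against 8.70 and 9.30 in control siRNA cells, just short of overlap. Tnfsf10 read 6.21 and 7.59 in Usp18 siRNA cells at 24 h, against 3.50 and 4.25 in control siRNA cells, a difference of 3.02 ± 0.502 (limma adjusted p = 0.0206). Cd86 read 8.86 and 9.22 in Usp18 siRNA cells, against 7.12 and 7.19 in control siRNA cells, and differed by 1.88 ± 0.206 (limma adjusted p = 0.00518), the smallest standard error of these. Jak2, a kinase of cytokine receptors, read 8.85 and 10.03 in Usp18 siRNA cells, against 7.31 and 7.23 in control siRNA cells. In all 4 the arrays of the siRNAs did not overlap at 24 h.

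Other members higher in Usp18 siRNA cells at 24 h were the ubiquitin ligases Rnf135 and Peli1 (by 2.85 and 2.47), Batf2 (2.41), Sertad1 (2.38) and Rilpl1 (2.26). The role-list members Hdc, Gch1 and Csf1 were higher by 2.05, 1.66 and 1.22. Tyk2, which sits on the interferon receptor, was among the 34, at 8.59 and 9.04 in Usp18 siRNA cells, against 7.49 and 7.62 in control siRNA cells. It was named after its values were seen. Cnp, which oligodendrocytes express strongly, was higher by 1.35. It was 1 of 3 tested oligodendrocyte markers, and the only 1 called. Microglial markers had means of 6.99 and 7.21 in Usp18 siRNA cells and 6.59 and 6.91 in control siRNA cells, with 0 of 7 called. Ch25h, a member at 9.09 or above in all microglia of set 1, read 4.22 and 4.72 in Usp18 siRNA cells, against 4.25 and 4.56 in control siRNA cells. The antiviral list had means of 10.26 and 10.96 in Usp18 siRNA cells and 8.84 and 9.14 in control siRNA cells.

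**Figure D4:**
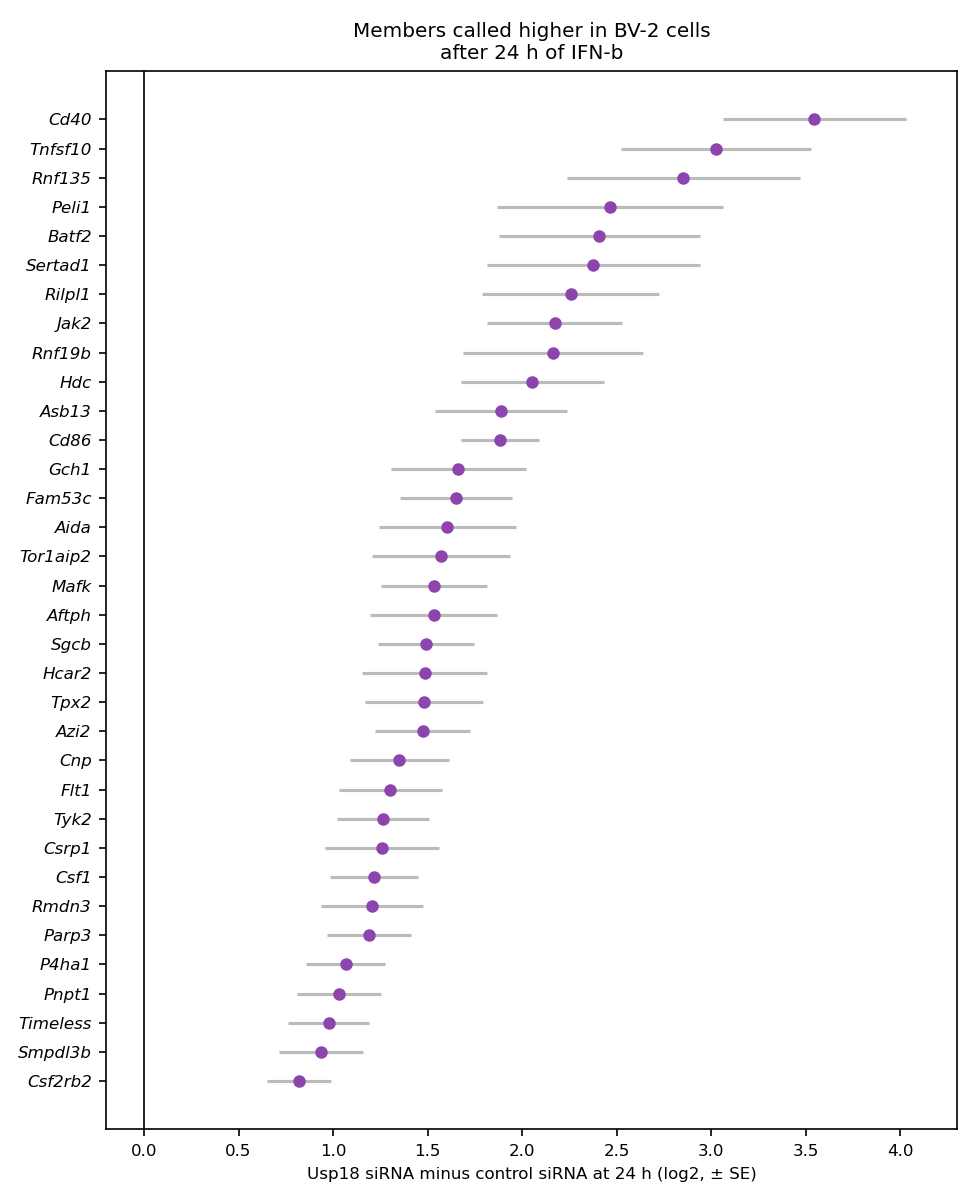
Difference between Usp18 siRNA and control siRNA BV-2 cells after 24 h of IFN-b (log2, points, with standard errors of the limma fit) for the 34 members called higher. The differences span 0.82 for Csf2rb2 to 3.55 for Cd40.

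At 0 h and 6 h no member passed between the siRNAs (limma, 6 and 22 at an unadjusted p under 0.05), with medians of 0.10 at 0 h and 0.33 at 6 h. Without the array that carried C1qa the 6 h median was 0.06. On that array Mmp13 read 11.44 and Tgm2, a transglutaminase, 10.37, against 3.67 and 5.34 on its replicate. Ch25h read 11.25 there, against 5.03. At 24 h the 34 calls became 57 of 138 without that array (5.05% of all genes), which is in neither group compared. They became 91 without Usp18 siRNA 24 h replicate 1, 2 (Cd40 and Cd86) without replicate 2, and 0 without either control array at 24 h. The 24 h differences of Cd40 and Cd86 ran from 2.69 to 4.40 and from 1.71 to 2.06 over these 4 fits. The Usp18 siRNA replicates differed among themselves, with member medians of 8.21 and 9.05 at 24 h, and antiviral means of 6.94 and 8.49 already at 0 h.

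Within the Usp18 siRNA course 53 of 141 members rose from 0 h to 24 h and none fell (6.45% and 8.61% of all genes). The median member changed by 1.08, against -0.10 over all genes. Cd40 rose by 3.75, Rilpl1 by 3.70, Ccrl2 by 3.55, Cd274 by 3.34, Rnf135 by 3.24 and Tnfsf10 by 2.99. Batf2, Jak2, Gadd45g, Cd86, Arid5a and Gch1 rose by 2.16 to 2.86, and Acod1, Hdc, Gadd45b and Pim1 by 1.19 to 1.86. Without single arrays the 53 became 4 (0 h replicate 1), 13 (0 h replicate 2), 87 (24 h replicate 1) and 10 (24 h replicate 2), and Cd40, Rilpl1 and Cd86 kept their calls in all 4 fits. Without the array that carried C1qa 74 of 138 rose at 24 h (8.77% of all genes). At 6 h 9 members rose (0.941% of all genes), led by Rilpl1 (2.74), Tnfsf10 (2.63) and Jak2 (2.11) and including Gch1, Usp25, Cd86, Rap2c and Azi2. None of the 9 was called without 6 h replicate 2, the array that carried C1qa, or without either 0 h array, and 44 were called without 6 h replicate 1. Between 6 h and 24 h no member passed (limma, 28 at an unadjusted p under 0.05), with a median of 0.31, or 0.69 without that array, while 0.141% of all genes rose.

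In control siRNA cells 2 of 141 members rose at 6 h (0.998% of all genes), with a median of 0.36. Rilpl1 read 5.86 and 5.57 at 0 h, 9.05 and 8.98 at 6 h and 7.65 and 8.32 at 24 h, and rose by 3.30 ± 0.468 (limma adjusted p = 0.0151). Rap2c, a Ras-like GTPase, rose by 1.07 ± 0.202 (limma adjusted p = 0.0458). Both calls were lost without any of the 4 arrays (limma adjusted p up to 0.151 and 0.482). No member passed at 24 h or between 6 h and 24 h (limma, 11 and 17 at an unadjusted p under 0.05), with medians of 0.05 and -0.31, and 0.506% and 0% of all genes rose. In these cells 19 of 27 antiviral genes rose at 6 h, with a median of 3.20. The responses of the 2 siRNAs differed in no member at 6 h, at 24 h or between them (limma, 1, 44 and 33 at an unadjusted p under 0.05), and 0%, 0.0281% and 0.0141% of all genes were called higher. The median differences were 0.17, 0.88 and 0.71, or -0.11, 0.86 and 1.00 without the array that carried C1qa.

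Members raised at 24 h over untreated cells were partly the same in C61A microglia and Usp18 siRNA BV-2 cells, which share no arrays. Of the 141 members tested in both, 52 rose in C61A cells and 53 in Usp18 siRNA cells, and 28 rose in both (53.8% and 52.8% of the lists). For scale, 37.6% of all 141 rose in Usp18 siRNA cells, and none of the overlaps given here was tested. The 28 included Cd40, Tnfsf10, Ccrl2, Cd274, Batf2, Acod1, Gch1, Gadd45b, Pim1, Hcar2, Peli1, Rnf135 and Apobec3. Members that rose at 6 h in KO cells shared 10 with the C61A list (34.5% of 29 and 19.2% of 52). That is close to the 34.4% of all 151 members that rose in C61A cells. With the Usp18 siRNA list they shared 5 of 27 tested in both (18.5% and 9.43%), below the 37.6% of all 141 members that rose there.

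Whole role lists gave context for these groups, and the counts below include the members on them. The lists of immediate-early factors, of feedback by mRNA decay and phosphatases, and of NF-kB and its feedback held 28, 17 and 20 genes on the array, of which 2, 1 and 3 were members. At 24 h 3 of 24, 5 of 15 and 4 of 20 tested rose in C61A cells, and 1, 1 and 0 fell. In Usp18 siRNA cells 2 of 23, 2 of 14 and 5 of 19 rose at 24 h, and 1, 0 and 0 fell. The adhesion and co-stimulation list held 16 genes on the array, of which 6 were members. Of those tested 6 of 14 rose and 1 fell in C61A cells. In Usp18 siRNA cells 6 of 14 rose, the members Cd40, Cd86 and Cd274 among them. Antiviral genes rose in 26 of 28 in C61A cells and 26 of 27 in Usp18 siRNA cells at 24 h, against 5.55% and 6.45% of all genes. None of these antiviral genes is a member. Their median stood 4.13 above untreated WT cells of set 1 at 6 h and 3.26 above at 24 h.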

How the data were processed

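Log2 intensities of 36 Affymetrix arrays were used as deposited by the authors. Per the submitters' processing notes affy was used, of a version not given in the sources used here, as for how probes were summarised and arrays normalized. The log base was inferred from the range of values, 1.66 to 14.03. Array medians ran from 5.59 to 5.83. No 2 arrays correlated above 0.995. Of 22690 probe sets, 20393 had 1 gene in the platform annotation, 691 had several and 1606 were not listed. Arrays give no counts, so their number limits the precision.

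The members and gene lists were chosen with earlier results of these data known. Genes were kept when above the array median on at least 2 arrays of a fit. Group means were fitted with limma 3.58.1 in R 4.3.3 (lmFit, eBayes), over 24 microglial arrays (7924 genes) and over 12 BV-2 arrays (7117 genes), with Benjamini-Hochberg adjustment over all genes tested and a threshold of 0.05. Contrasts with WT arrays of set 1 carry no test. Named were the 12 members with the largest 6 h rise, role-list members, the 3 genes on either side of each threshold, and up to 8 called members per direction and comparison with the largest change among those whose groups do not overlap. Members named for a promoter, an overlap or a small count were chosen after their values were seen. On simulated data the microglial fit recovered 88 of 100 genes changed by 2 log2 units and 47 of 100 changed by 1, and the BV-2 fit 97 and 56. Of the calls made there, 10 of 145 were false in the microglial fit and 10 of 163 in the BV-2 fit. Alternatives were other scalings, filters and probe sets, left-out arrays, fits of 1 set and replicate blocks.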

Additional observations from a re-analysis of the deposited data

How the results depend on the processing

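Of 410 counts of members recomputed under other settings, single left-out arrays aside, 368 stayed within 1.5 times the main count and 42 did not. Most of the main counts were 0, and counts of 0 that stayed 0 are among the 368. This share therefore does not describe how stable the called results were. No direction reversed. The cause of these shifts was not tested. Centring each array on its median left 1 fall at 24 h and 4 falls after 6 h in KO cells. Without a filter, KO cells had 1 fall at 24 h, control siRNA cells 1 rise at 6 h, Usp18 siRNA cells 4 rises at 6 h, and 15 members were higher in Usp18 than control siRNA cells at 24 h. Requiring 50% of the arrays gave 8 rises at 24 h in KO cells. Applying quantile normalization to the deposited values, or choosing the probe set over all 36 arrays, gave 1 rise after 6 h in Usp18 siRNA cells. Fitting only the 12 arrays of the set gave 79 rises at 6 h, 2 rises and 0 falls at 24 h and 13 falls after 6 h in KO cells, and 7 rises at 24 h in C61A cells. Without the 3 arrays that stood apart, KO cells had 101 rises at 6 h, 32 at 24 h and 25 falls after 6 h. WT cells of set 2 then had 54 and 26 rises at 6 h and 24 h, C61A cells 70 and 99, Usp18 siRNA cells 0 at 6 h, 4 members were higher in C61A than WT cells at 24 h, and 57 in Usp18 than control siRNA cells. The number of members was 150 with the probe set chosen over 36 arrays and 173 after centring.

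Replicate numbers were not taken to pair samples, with 2 pairs per comparison. Deviations of arrays of the same number correlated at 0.300 to 0.816 within a course (18 pairs) and -0.437 to 0.510 between courses (6 pairs). With culture as a replicate block, KO cells had 71 rises at 6 h, 29 rises and 5 falls at 24 h, and 1 rise and 22 falls after 6 h. The same replicate block gave 2 rises at 24 h in WT cells of set 2, and in C61A cells 3 rises at 6 h, 79 at 24 h, and 4 rises and 1 fall after 6 h. It gave 14 and 2 rises at 6 h and 24 h in control siRNA cells. In Usp18 siRNA cells it gave 39 rises at 6 h, 89 rises and 1 fall at 24 h, and 15 rises after 6 h, and 2 members differed between the siRNAs in their 24 h response. With replicate number as the replicate block, 85 members were higher in Usp18 than control siRNA cells at 24 h.

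Leaving out 1 array at a time gave, as lowest and highest counts, 1 to 39 rises and 0 to 1 falls at 6 h, 0 to 23 rises and 0 to 1 falls at 24 h, and 0 to 10 falls after 6 h in KO cells. It gave 0 to 2 and 0 to 3 rises at 6 h and 24 h in WT cells of set 2. In C61A cells it gave 0 to 1 rises at 6 h, 1 to 8 at 24 h, and 0 to 6 rises and 0 to 2 falls after 6 h. Usp18 siRNA cells had 0 to 44 rises at 6 h, 4 to 87 rises and 0 to 1 falls at 24 h, and 0 to 26 rises and 0 to 5 falls after 6 h. Control siRNA cells had 0 rises at 6 h in every such fit. C61A cells were lower than WT cells in 0 to 34 members at 0 h and higher in 0 to 1 at 6 h, with a higher 24 h response in 0 to 22, and a higher or lower change after 6 h in 0 to 1. Usp18 siRNA cells were higher than control siRNA cells in 0 to 13 members at 6 h and 0 to 91 at 24 h, with a higher response in 0 to 3 at 6 h, 0 to 26 at 24 h and 0 to 4 after 6 h, and a lower one in 0 to 2 after 6 h. The number of members ranged from 143 to 184. With 2 arrays per group, such a fit assumes that the lone array varies like the other groups. Shares of all genes called are not given for these fits, the replicate blocks or the other scalings, filters and sets. Their counts thus show how calls moved, and not an excess of members over all genes.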
